A study of Mus musculus with 8 samples.

Results

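Interferon-response genes were followed in adipose-derived stem cells of 3 white fat depots of the mouse. The set holds 45 genes that were chosen by symbol, because interferons are known to induce them, and the rule sets no threshold on a measured value. Of the 45, 43 were matched to a row among the 17967 gene symbols of the count table, and all 43 passed the filter on low counts. Mx1 and Mx2, which code for dynamin-like antiviral GTPases, were matched to no row and were not analysed here. RNA was sequenced in bulk from cells that had been sorted by flow cytometry after collagenase digestion of the fat and lysis of red cells. The series has 8 samples from 4 depots, and the 6 analysed here come, 2 per depot, from perirenal fat (NWAT), subcutaneous fat of the inguinal region (SWAT) and the epididymal fat pad (EWAT). Mesenteric fat (MWAT) was not analysed here. Every group was of the strain C57BL/6J wild type, male and fed a chow diet, so that the depot is the labelled difference between the groups. Age, number of animals per sample and the surface markers of the sort were not given in the sources used here. No source says that replicates came from separate mice, so each p-value measures the spread between the libraries at hand, and that spread may be technical.

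Interferons are secreted proteins, and cells release those of type I on sensing viral or microbial nucleic acid. Type I interferons bind the receptor IFNAR and signal through JAK1 and TYK2 to a complex that holds STAT2 and IRF9, known as ISGF3, which binds the interferon-stimulated response element (ISRE) in promoters. Interferon gamma binds IFNGR and signals through JAK1 and JAK2 to factors that bind the gamma-activated site (GAS). The induced genes code for sensors of foreign RNA, transcription factors that feed the response, antiviral effectors, and GTPases that act on intracellular microbes. In white fat the stem cells are fibroblast-like stromal cells that can become adipocytes, and many cell types keep a low tonic level of interferon-induced transcripts without infection.

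The 6 libraries held 20026413 to 20638724 estimated read counts, and 13694 genes were tested. Stem cell markers were abundant in every library: Pdgfra, the receptor used most often to identify these cells, had counts of 22489 and 22264 in SWAT, 24942 and 20823 in EWAT, and 29762 and 29737 in NWAT. Ptprc, which codes for the pan-leukocyte antigen CD45, had 5 to 19 counts per library. NWAT replicate 2 stood apart in red cell transcripts, with 1723 counts of the haemoglobin gene Hba-a1 against 56 to 166 in the other 5 libraries. Ribosomal protein transcripts took 2.43% of the counts in EWAT replicate 2 and 1.36% to 1.78% in the others. In bulk samples, fewer cells of a type and less RNA per cell cannot be told apart.

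Nearly all of the interferon-response genes were lowest in EWAT stem cells, and most were highest in NWAT stem cells. By mean log2 CPM, 41 of the 43 were lowest in EWAT (36.9% of all tested genes) and 39 were highest in NWAT (28.6%). By edgeR's quasi-likelihood test with Benjamini-Hochberg adjustment at 0.05, 42 of the 43 genes differed among the depots, where 41.7% of all tested genes did. The exception was Ifi35 (adjusted p = 0.0617). In NWAT against EWAT, 42 of the 43 were higher and 0 lower, where 14% of all tested genes were higher and 13.3% lower. In NWAT against SWAT, 21 were higher and 0 lower, against 9.83% and 9.07% of all tested genes, and without NWAT replicate 2, 12 were higher and 1 lower. In SWAT against EWAT, 28 were higher and 1 was lower, against 18% and 18.7% of all tested genes. The median log2 fold change of the 43 was 1.22 for NWAT against EWAT, 0.53 for NWAT against SWAT and 0.67 for SWAT against EWAT, whereas the median of all tested genes was -0.01, 0.02 and -0.01. Without NWAT replicate 2 the median of the 43 for NWAT against SWAT was 0.26. These 3 comparisons share libraries and are not independent of each other.

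The level of the whole set in each library gives the same order. Summed FPKM, a count scaled by gene length and library size, was 570.1 and 638 in EWAT, 799 and 884 in SWAT, and 1167 and 1591 in NWAT, with replicate 1 given first here and throughout. The groups did not overlap, and the gap between the NWAT replicates was the widest. The mean was 604 ± 48.3 for EWAT, 842 ± 60.4 for SWAT and 1379 ± 300 for NWAT (SD, n = 2). The ratio of NWAT to EWAT was 2.28 and that of NWAT to SWAT was 1.64. SWAT stood at 1.39 times EWAT by FPKM and at 1.61 times EWAT by TMM-scaled CPM (counts divided by scaled library sizes), a scaling that sets the bulk of genes equal between libraries. Both EWAT libraries lay below the other 4 libraries in 38 of the 43 genes (21.3% of all tested genes), and both NWAT libraries lay above the other 4 in 30 (14.1%).

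**Figure D1:**
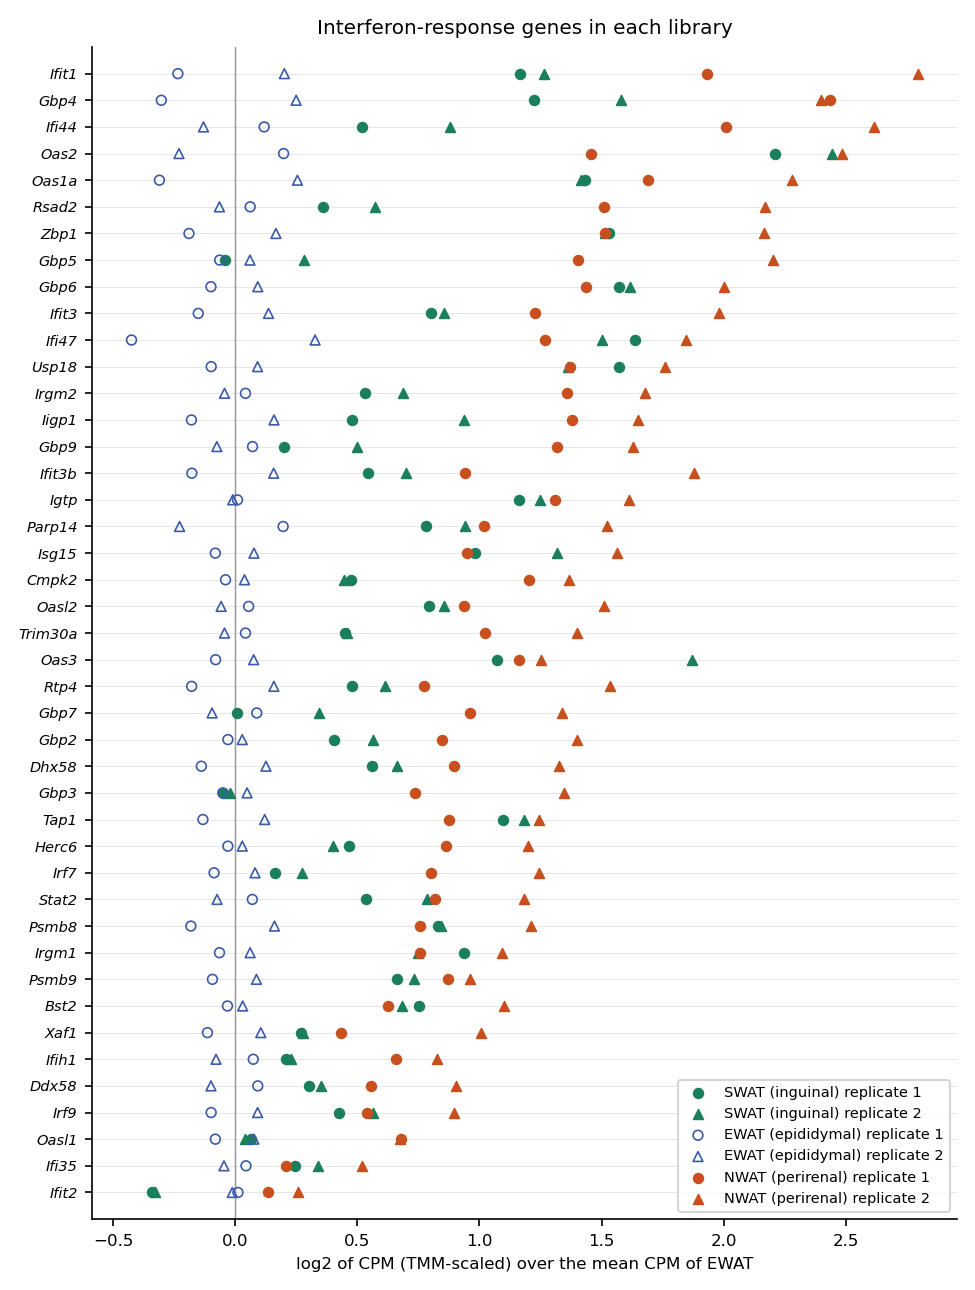
Each row is 1 of the 43 interferon-response genes and each point 1 library; the x axis is the log2 ratio of its TMM-scaled CPM to the mean CPM of the 2 EWAT libraries. In 38 rows both EWAT points (open, blue) lie left of the other 4, and in 30 rows both NWAT points (orange) lie right of the other 4.

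Promoter sequence of these genes was also described. The genes were chosen because interferons induce them, so a high share of ISRE matches can follow from that choice whatever the depots do. RefSeq windows of 300 bases on GRCm38.p6 (250 before the start of transcription and 50 after it) were matched by symbol for 33 of the 43 genes, as 37 windows, since some genes have several starts. An ISRE was searched as GAAA, any 2 bases and GAAA again, and a GAS as TTCNNNGAA, each on both strands. Neighbouring ISRE matches can overlap each other, and in Bst2 an ISRE match overlaps a GAS match. An ISRE match was found in 20 of the 37 windows (54.1%), against 3.44% of the 32851 windows in the table. A GAS match was found in 9 windows (24.3%), against 8.3% of all windows, and 6 windows held both. Among the 17 genes with a window that were higher in NWAT than in SWAT, 11 had an ISRE match, and among the other 16, 8 did.

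The 200 bases before the start of 7 of these genes are shown in the direction of transcription, with ISRE and GAS matches in capitals; a match on the opposite strand appears as its reverse complement. Ifit1 (chr19:34640689-34640888, plus strand), Rsad2 (chr12:26456453-26456652, minus strand) and Isg15 (chr4:156200819-156201018, minus strand) show ISRE matches without a GAS match. Gbp5 (chr3:142496734-142496933, plus strand) and Gbp7 (chr3:142530136-142530335, plus strand) are neighbours that both hold an ISRE and a GAS. Igtp (chr11:58199356-58199555, plus strand) and Irgm2 (chr11:58214777-58214976, plus strand) are shown because they are neighbours whose windows share an identical run of 61 bases, which begins at position -11 in Igtp and -41 in Irgm2 and crosses the Igtp start.
Ifit1: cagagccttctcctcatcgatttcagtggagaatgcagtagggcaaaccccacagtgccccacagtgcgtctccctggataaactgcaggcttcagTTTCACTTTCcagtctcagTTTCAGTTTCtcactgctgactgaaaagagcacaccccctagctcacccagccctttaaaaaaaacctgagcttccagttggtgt
Rsad2: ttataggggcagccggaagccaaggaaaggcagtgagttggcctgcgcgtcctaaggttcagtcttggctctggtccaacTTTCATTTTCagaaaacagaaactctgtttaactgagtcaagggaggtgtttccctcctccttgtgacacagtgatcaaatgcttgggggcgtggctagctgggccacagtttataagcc
Isg15: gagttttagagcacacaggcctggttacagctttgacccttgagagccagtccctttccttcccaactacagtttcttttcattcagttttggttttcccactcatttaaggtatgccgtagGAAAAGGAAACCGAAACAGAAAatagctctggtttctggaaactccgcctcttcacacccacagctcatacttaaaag
Gbp5: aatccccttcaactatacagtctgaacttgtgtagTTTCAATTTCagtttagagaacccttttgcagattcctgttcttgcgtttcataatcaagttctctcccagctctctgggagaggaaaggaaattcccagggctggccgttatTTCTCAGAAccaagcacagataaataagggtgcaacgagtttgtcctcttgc
Gbp7: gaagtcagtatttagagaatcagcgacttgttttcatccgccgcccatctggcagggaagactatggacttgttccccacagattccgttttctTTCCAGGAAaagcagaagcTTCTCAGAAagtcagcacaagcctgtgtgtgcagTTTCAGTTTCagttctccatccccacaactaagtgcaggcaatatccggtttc
Igtp: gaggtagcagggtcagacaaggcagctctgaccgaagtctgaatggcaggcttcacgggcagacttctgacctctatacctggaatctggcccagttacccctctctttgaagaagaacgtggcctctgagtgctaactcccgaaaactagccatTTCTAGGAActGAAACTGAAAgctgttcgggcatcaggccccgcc
Irgm2: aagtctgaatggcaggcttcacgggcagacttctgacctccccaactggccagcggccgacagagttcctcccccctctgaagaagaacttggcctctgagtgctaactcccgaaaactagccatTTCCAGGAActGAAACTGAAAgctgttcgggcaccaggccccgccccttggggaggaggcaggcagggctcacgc

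Ifit1 holds 2 ISRE matches that begin 104 and 85 bases before the start, Rsad2 holds 1 at 120 bases and Isg15 holds a run of 3 overlapping matches at 78, 72 and 66 bases. In Igtp and Irgm2 the GAS match lies directly before the ISRE match, at 45 and 34 bases before the start in Igtp and at 75 and 64 in Irgm2. A match is a description of these letters and not a measured binding site. By role, all 4 guanylate-binding protein genes with a window and both RNA sensor genes with one held an ISRE match, as did 8 of 12 antiviral effector genes, 3 of 4 immunity-related GTPase genes, 1 of 3 transcription factor and feedback genes, 1 of 5 other induced genes and 0 of 3 antigen processing genes. Psmb9 and Tap1 start in opposite directions from one shared region, in which their windows overlap by 275 bases.

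Among the sensors of nucleic acid, all 4 were higher in NWAT than in EWAT, 3 were higher in NWAT than in SWAT and 2 were higher in SWAT than in EWAT. Here and in the roles that follow, the shares of all tested genes called higher in these 3 comparisons were 14%, 9.83% and 18%. Zbp1 (chr2:173206612-173218959), which binds Z-form nucleic acid and can start necroptosis, had 33.5 and 33.1 CPM in SWAT, 10.2 and 13.0 in EWAT, and 33.2 and 52.1 in NWAT. Both EWAT libraries were low, and NWAT replicate 1 was level with the SWAT pair while NWAT replicate 2 stood above it. Zbp1 was higher in NWAT than in EWAT (log2 fold change 1.87, SE 0.21, adjusted p = 0.00017) and higher in SWAT than in EWAT (log2 fold change 1.52, SE 0.21, adjusted p = 0.000481), and its NWAT to SWAT value was 0.35 (SE 0.19, adjusted p = 0.255). Ifih1 and Ddx58, which code for the cytoplasmic RNA sensors MDA5 and RIG-I, changed less. Ifih1 had 53.0 and 53.7 CPM in SWAT, 48.3 and 43.4 in EWAT, and 72.4 and 81.3 in NWAT, with both NWAT libraries above all others. Its log2 fold change was 0.74 (SE 0.10, adjusted p = 0.00028) against EWAT and 0.53 (SE 0.10, adjusted p = 0.00404) against SWAT. Ddx58 was higher in NWAT than in EWAT (log2 fold change 0.74, SE 0.13, adjusted p = 0.00112) and than in SWAT (log2 fold change 0.42, SE 0.13, adjusted p = 0.0381). Dhx58 codes for LGP2, a helicase that tunes the other sensors, and it was higher in each of the 3 comparisons, with values of 1.12 for NWAT against EWAT, 0.51 for NWAT against SWAT and 0.61 for SWAT against EWAT. The NWAT against SWAT call of Dhx58 was lost with DESeq2 (adjusted p = 0.0867), and its SWAT against EWAT call with limma on FPKM (0.0928 to 0.167). Without NWAT replicate 2 the NWAT against SWAT calls of Ifih1 (adjusted p = 0.0638), Ddx58 (0.382) and Dhx58 (0.376) were lost. Those of Ddx58 and Dhx58 were also lost without SWAT replicate 1 (adjusted p = 0.196 and 0.219) or 2 (0.149 and 0.135), and the SWAT against EWAT call of Dhx58 without SWAT replicate 2 (0.0871) or EWAT replicate 1 (0.057).

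The transcription factors and the feedback gene of the pathway, 4 in all, were each higher in NWAT than in EWAT, but only Irf7 was called in NWAT against SWAT. Irf7, the factor that amplifies type I interferon production, had 73.9 and 79.8 CPM in SWAT, 62.2 and 69.8 in EWAT, and 115 and 156 in NWAT. Both NWAT libraries stood above the other 4, which lay close together, and the differences were 1.04 (SE 0.14, adjusted p = 0.000263) against EWAT and 0.82 (SE 0.14, adjusted p = 0.0018) against SWAT. Usp18 codes for a protease that removes ISG15 and dampens receptor signalling, and it had 28.8 and 24.9 CPM in SWAT, 9.06 and 10.3 in EWAT, and 25.1 and 32.8 in NWAT. SWAT and NWAT overlapped for Usp18, and both lay well above EWAT. Its log2 fold change was 1.58 (SE 0.15, adjusted p = 1.73e-05) for NWAT against EWAT, 1.47 (SE 0.15, adjusted p = 1.96e-05) for SWAT against EWAT and 0.11 (SE 0.14, adjusted p = 0.66) for NWAT against SWAT. Stat2 and Irf9, which code for subunits of ISGF3, had values of 1.01 and 0.73 for NWAT against EWAT and of 0.67 and 0.50 for SWAT against EWAT, all 4 called. The SWAT against EWAT call of Irf9 was lost without SWAT replicate 2 (adjusted p = 0.0938).

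Of the 13 antiviral effector genes, 12 were higher in NWAT than in EWAT, 6 were higher in NWAT than in SWAT, and in SWAT against EWAT 9 were higher and 1 was lower. Ifit1, whose protein binds RNA with an incompletely methylated cap, is on chromosome 19 (chr19:34640889-34650009) and had 73.4 and 78.6 CPM in SWAT, 27.8 and 37.7 in EWAT, and 125 and 227 in NWAT. All 3 groups were separate, with NWAT replicate 2 far above NWAT replicate 1. The log2 fold change of Ifit1 was 2.43 (SE 0.30, adjusted p = 0.00176) for NWAT against EWAT, 1.21 (SE 0.29, adjusted p = 0.0321) for NWAT against SWAT and 1.21 (SE 0.30, adjusted p = 0.021) for SWAT against EWAT. Ifit3, which codes for a relative of the Ifit1 protein, had 51.9 and 53.7 CPM in SWAT, 26.8 and 32.7 in EWAT, and 69.6 and 117 in NWAT. Its groups were also separate, in the same order, with values of 1.65, 0.82 and 0.83 (adjusted p = 0.00144, 0.0397 and 0.0261). Ifit3b is a near-identical copy of Ifit3 and may share its reads. It had 12.6 and 14.1 CPM in SWAT, 7.66 and 9.66 in EWAT, and 16.6 and 31.8 in NWAT, and was called in NWAT against EWAT only (log2 fold change 1.48, SE 0.29, adjusted p = 0.0087).

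Several IFIT calls were lost with 1 library fewer while the differences kept their direction. Without EWAT replicate 1 or 2, the NWAT against EWAT call was lost in Ifit1 (log2 fold change 2.22 and 2.66, adjusted p = 0.0908 and 0.113), Ifit3 (0.0988 and 0.119) and Ifit3b (0.162 and 0.177). The NWAT against SWAT and SWAT against EWAT calls of Ifit1 and Ifit3 were lost when either SWAT or either EWAT library was left out, with an adjusted p of 0.0616 to 0.31, and that of Ifit3 for NWAT against SWAT also without NWAT replicate 2 (0.125). The NWAT against SWAT calls of Ifit1 and Ifit3 were also lost with no count filter (adjusted p = 0.132 and 0.121) and with only these depots in the fit (0.154 and 0.182), and their SWAT against EWAT calls with no count filter (0.0887 and 0.0794).

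Ifit2 was the only 1 of the 43 genes called lower in SWAT than in EWAT. This gene, whose protein binds AU-rich RNA, had 32.0 and 32.3 CPM in SWAT, 40.9 and 40.2 in EWAT, and 44.5 and 48.4 in NWAT. SWAT was the low group, EWAT the middle one and NWAT the high one, and no groups overlapped. Ifit2 was lower in SWAT than in EWAT (log2 fold change -0.33, SE 0.10, adjusted p = 0.0219) and higher in NWAT than in SWAT (log2 fold change 0.53, SE 0.10, adjusted p = 0.00285), and its NWAT to EWAT value was 0.20 (SE 0.10, adjusted p = 0.158). It was the only 1 of the 43 set apart as low in SWAT, meaning called in the same direction against both other depots, where 5.88% of all tested genes were. The SWAT against EWAT call of Ifit2 was lost with DESeq2 (adjusted p = 0.0642), and without SWAT replicate 1 (adjusted p = 0.113) or 2 (0.107).

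The OAS genes, a family known for enzymes whose oligoadenylate product activates the nuclease RNase L, were low in EWAT and higher in the other depots. Oas2 had 23.1 and 27.3 CPM in SWAT, 5.74 and 4.27 in EWAT, and 13.7 and 28.0 in NWAT. EWAT was low, and the SWAT values lay inside the range of the NWAT replicates. The log2 fold change of Oas2 was 2.06 (SE 0.36, adjusted p = 0.00822) for NWAT against EWAT and 2.33 (SE 0.36, adjusted p = 0.0036) for SWAT against EWAT, whereas the value for NWAT against SWAT was -0.27 (SE 0.32, adjusted p = 0.631). Oas1a, which has near-identical copies such as Oas1g that may share its reads, had 18.6 and 18.4 CPM in SWAT, 5.56 and 8.22 in EWAT, and 22.2 and 33.4 in NWAT. EWAT was low and NWAT lay above SWAT without overlap. Oas1a was higher in NWAT than in EWAT (log2 fold change 2.01, SE 0.22, adjusted p = 0.000135) and in SWAT than in EWAT (log2 fold change 1.42, SE 0.23, adjusted p = 0.00101), with 0.59 (SE 0.20, adjusted p = 0.0775) for NWAT against SWAT. Oas3, with 1.77 to 6.86 CPM, was higher than EWAT in NWAT (1.20) and in SWAT (1.52). Oasl2, a ubiquitin-like relative of the family, had 96.5 and 101 CPM in SWAT, 57.9 and 53.5 in EWAT, and 106 and 159 in NWAT. Its EWAT libraries were lowest and its log2 fold changes were 1.25 for NWAT against EWAT and 0.82 for SWAT against EWAT, both called. Oasl1, a repressor of Irf7 translation, differed from its neighbour Oasl2 in that SWAT lay with EWAT: 7.13 and 7.01 CPM in SWAT, 6.44 and 7.19 in EWAT, and 10.9 and 10.9 in NWAT. It was called in NWAT against EWAT (0.68) and against SWAT (0.62), with 0.05 (SE 0.15, adjusted p = 0.809) for SWAT against EWAT. The Oas2 calls were lost without EWAT replicate 1 (adjusted p = 0.109 for NWAT and 0.0804 for SWAT) or 2 (0.221 and 0.141). The Oasl2 call of SWAT against EWAT was lost without EWAT replicate 1 (0.0601) or 2 (0.105), that of NWAT against EWAT without EWAT replicate 2 (0.0501), and the Oasl1 call of NWAT against SWAT without SWAT replicate 1 (0.063) or 2 (0.0767) or NWAT replicate 1 (0.0659) or 2 (0.0633).

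Rsad2 and Cmpk2 are neighbours on chromosome 12 that act in one antiviral route, in which CMPK2 supplies the nucleotide that the enzyme viperin, coded by Rsad2, turns into a chain terminator. Rsad2 (chr12:26442743-26456452) had 13.3 and 15.5 CPM in SWAT, 10.8 and 9.93 in EWAT, and 29.5 and 46.7 in NWAT. SWAT and EWAT were close, and both NWAT libraries stood well above them. It was higher in NWAT than in EWAT (log2 fold change 1.88, SE 0.20, adjusted p = 0.000112) and than in SWAT (log2 fold change 1.40, SE 0.20, adjusted p = 0.000878). Cmpk2 had 26.2 and 25.6 CPM in SWAT, 18.3 and 19.3 in EWAT, and 43.3 and 48.5 in NWAT, with tight replicates in every depot, and was higher in each of the 3 comparisons: 1.29 for NWAT against EWAT, 0.82 for NWAT against SWAT and 0.46 for SWAT against EWAT. Isg15, the ubiquitin-like protein that is attached to other proteins during the response, is on chromosome 4 (chr4:156199424-156200818) and had 23.8 and 30.1 CPM in SWAT, 11.4 and 12.7 in EWAT, and 23.3 and 35.7 in NWAT. NWAT replicate 1 lay level with SWAT replicate 1, and EWAT was low. Isg15 was higher in NWAT than in EWAT (log2 fold change 1.29, SE 0.20, adjusted p = 0.00119) and in SWAT than in EWAT (log2 fold change 1.16, SE 0.20, adjusted p = 0.00172), with 0.13 (SE 0.19, adjusted p = 0.705) for NWAT against SWAT. Bst2, which codes for tetherin and holds budding virus at the cell surface, moved the same way with a value of 0.88 for NWAT against EWAT and 0.72 for SWAT against EWAT, both called. The Isg15 call of NWAT against EWAT was lost without EWAT replicate 2 (adjusted p = 0.0578), and that of SWAT against EWAT without EWAT replicate 1 (0.0593) or 2 (0.0541).

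The guanylate-binding proteins, large GTPases that coat microbes and their vacuoles, had the highest share of calls in NWAT against SWAT among the 7 roles, a difference between roles that was not tested. All 7 were higher in NWAT than in EWAT, 6 were higher in NWAT than in SWAT and 3 were higher in SWAT than in EWAT. Gbp5, which promotes inflammasome assembly, is on chromosome 3 (chr3:142496934-142522344) and had 12.5 and 15.7 CPM in SWAT, 12.3 and 13.4 in EWAT, and 34.1 and 59.2 in NWAT. SWAT and EWAT overlapped, and the 2 NWAT libraries stood far above both. Gbp5 was higher in NWAT than in SWAT (log2 fold change 1.73, SE 0.25, adjusted p = 0.00243) and than in EWAT (log2 fold change 1.86, SE 0.25, adjusted p = 0.00125), with 0.13 (SE 0.27, adjusted p = 0.737) for SWAT against EWAT. Gbp3 had the same shape, with 36.2 and 36.9 CPM in SWAT, 36.2 and 38.8 in EWAT, and 62.5 and 95.3 in NWAT. The log2 fold change of Gbp3 was 1.11 (SE 0.17, adjusted p = 0.00139) for NWAT against SWAT and -0.04 (SE 0.17, adjusted p = 0.89) for SWAT against EWAT. Gbp9 had 20.2 and 24.8 CPM in SWAT, 18.4 and 16.7 in EWAT, and 43.8 and 54.3 in NWAT, with NWAT values of 1.48 against EWAT and 1.12 against SWAT. Gbp7 was higher in NWAT by 1.16 against EWAT and 0.98 against SWAT.

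Gbp4 and Gbp6 did not share that shape, although they lie beside Gbp9 on chromosome 5. Gbp4 had 5.65 and 7.23 CPM in SWAT, 1.96 and 2.88 in EWAT, and 13.1 and 12.8 in NWAT, a step at each depot with close NWAT replicates. Its log2 fold change was 2.41 (SE 0.20, adjusted p = 5.88e-06) for NWAT against EWAT, 1.00 (SE 0.19, adjusted p = 0.00264) for NWAT against SWAT and 1.41 (SE 0.22, adjusted p = 0.000383) for SWAT against EWAT. Gbp6, which has the near-identical copy Gbp10 that may share its reads, had 106 and 109.7 CPM in SWAT, 33.4 and 38.2 in EWAT, and 97.1 and 143 in NWAT. Its SWAT values fell between the NWAT replicates, far above EWAT, and it was higher in NWAT than in EWAT (log2 fold change 1.75, SE 0.17, adjusted p = 3.03e-05) and in SWAT than in EWAT (log2 fold change 1.59, SE 0.17, adjusted p = 3.8e-05), with 0.15 (SE 0.16, adjusted p = 0.568) for NWAT against SWAT. Gbp2, the most abundant member of the family by FPKM in NWAT (94.5), was called in all 3 comparisons with 1.15, 0.66 and 0.49 for NWAT against EWAT, NWAT against SWAT and SWAT against EWAT. The Gbp5 and Gbp3 calls of NWAT against EWAT were lost without EWAT replicate 1 (adjusted p = 0.0802 and 0.0657) or 2 (0.117 and 0.0842), and the Gbp5 call of NWAT against SWAT without EWAT replicate 1 (0.07) or 2 (0.0737) and with only these depots in the fit (0.0502). The Gbp2 calls of NWAT against SWAT and of SWAT against EWAT were lost when either SWAT or either EWAT library was left out, with adjusted p of 0.0512 to 0.211, and that of NWAT against SWAT also without NWAT replicate 2 (0.152) and with only these depots in the fit (0.0643).

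**Figure D2:**
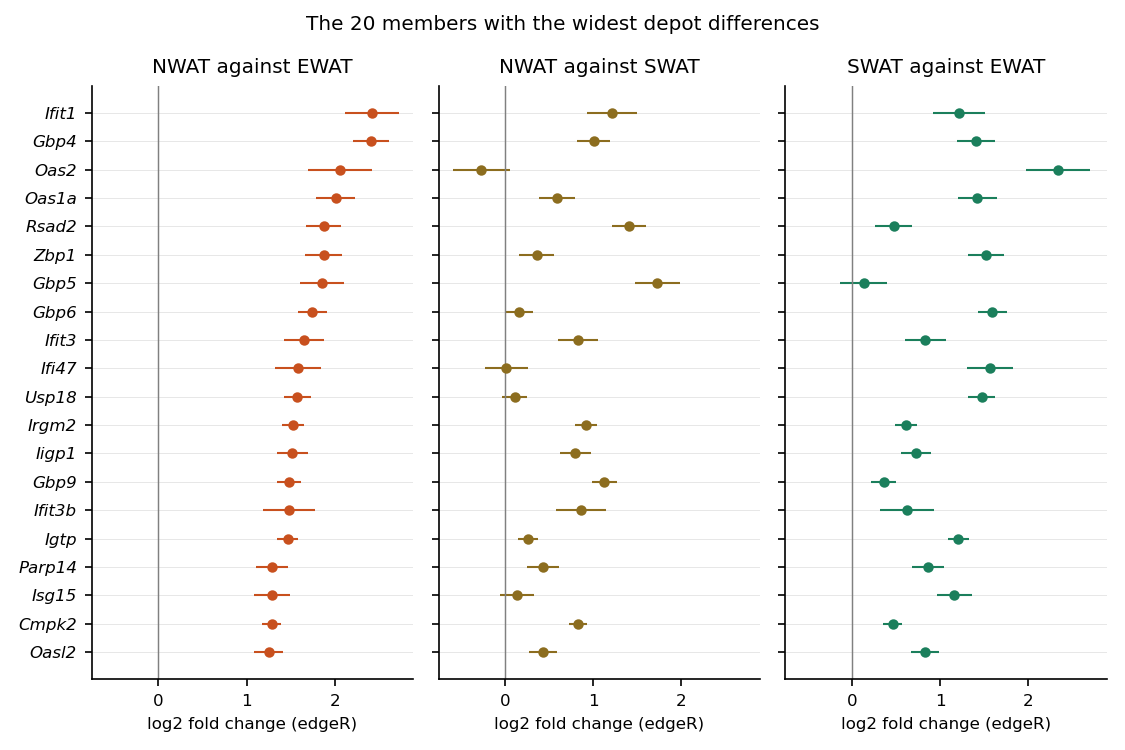
For the 20 genes with the widest differences between depot means, points are edgeR log2 fold changes for the 3 pairs of depots, and bars are 1 standard error to each side. In the NWAT against SWAT panel, Oas2, Gbp6, Ifi47, Usp18 and Isg15 lie near 0 while Gbp5 and Rsad2 reach 1.73 and 1.40; in the SWAT against EWAT panel Gbp5 lies near 0 and Oas2 reaches 2.33.

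The immunity-related GTPases, which destroy the vacuoles of intracellular parasites and bacteria, were all higher in NWAT and in SWAT than in EWAT, and 2 of the 5 were higher in NWAT than in SWAT. Iigp1 was the most abundant of the 43 genes, with a mean FPKM of 192 in NWAT, 97.4 in SWAT and 70.0 in EWAT. It had 271 and 373 CPM in SWAT, 172 and 218 in EWAT, and 507 and 612 in NWAT. The groups were separate in the order NWAT, SWAT, EWAT, with 1.52 (SE 0.18, adjusted p = 0.00012) for NWAT against EWAT, 0.79 (SE 0.17, adjusted p = 0.00893) for NWAT against SWAT and 0.73 (SE 0.17, adjusted p = 0.00856) for SWAT against EWAT. The SWAT against EWAT call of Iigp1 was lost with limma on FPKM (adjusted p = 0.0792 to 0.146). Irgm2, a regulator that keeps the effector GTPases off the cell's own membranes, had 91.7 and 102 CPM in SWAT, 65.4 and 61.6 in EWAT, and 163 and 203 in NWAT. Its groups were also separate, and it was higher in NWAT than in EWAT (log2 fold change 1.53, SE 0.13, adjusted p = 4.59e-06), in NWAT than in SWAT (log2 fold change 0.92, SE 0.12, adjusted p = 0.000277) and in SWAT than in EWAT (log2 fold change 0.61, SE 0.12, adjusted p = 0.00274). Igtp (also called Irgm3), in whose printed promoter the GAS and ISRE are spaced as in Irgm2, had 56.8 and 60.3 CPM in SWAT, 25.5 and 25.2 in EWAT, and 62.9 and 77.7 in NWAT. Its SWAT libraries lay just under NWAT, with 0.26 (SE 0.11, adjusted p = 0.137) for NWAT against SWAT, 1.21 (SE 0.12, adjusted p = 1.13e-05) for SWAT against EWAT and 1.47 (SE 0.12, adjusted p = 3.85e-06) for NWAT against EWAT. Ifi47 had 31.2 and 28.4 CPM in SWAT, 7.47 and 12.6 in EWAT, and 24.1 and 36.0 in NWAT. SWAT lay between the NWAT replicates, and Ifi47 differed by 1.58 for NWAT against EWAT, 1.57 for SWAT against EWAT and 0.01 for NWAT against SWAT, the first 2 called. Irgm1, which also acts in autophagy, was called likewise with 0.93 and 0.85 against EWAT. The Iigp1 call of NWAT against SWAT was lost without SWAT replicate 1 (adjusted p = 0.0725) or NWAT replicate 2 (0.0809), and that of SWAT against EWAT without SWAT replicate 2 (0.0806) or EWAT replicate 1 (0.0596).

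The antigen processing genes separated EWAT from the other depots and showed no call between NWAT and SWAT. Psmb8 and Psmb9 code for immunoproteasome subunits that cut peptides for display, and Tap1 for a subunit of the pump that carries the peptides into the endoplasmic reticulum. Tap1 had 52.4 and 55.5 CPM in SWAT, 22.3 and 26.6 in EWAT, and 44.9 and 58.0 in NWAT. EWAT was low and the other depots overlapped, with 1.14 (SE 0.14, adjusted p = 6.52e-05) for SWAT against EWAT, 1.07 (SE 0.14, adjusted p = 0.000153) for NWAT against EWAT and -0.07 (SE 0.13, adjusted p = 0.777) for NWAT against SWAT. Psmb8 and Psmb9 had 1.00 and 0.92 for NWAT against EWAT and 0.84 and 0.70 for SWAT against EWAT, all called.

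All 7 of the other induced genes were higher in NWAT than in EWAT, and Ifi44, Trim30a and Herc6 were also higher in NWAT than in SWAT. Parp14, a mono-ADP-ribosyltransferase, had 109.7 and 123 CPM in SWAT, 73.2 and 54.5 in EWAT, and 129 and 183 in NWAT. EWAT was the low group and NWAT replicate 1 lay just above SWAT, with 1.29 (SE 0.18, adjusted p = 0.000669) for NWAT against EWAT and 0.86 (SE 0.18, adjusted p = 0.00515) for SWAT against EWAT. Ifi44 was the least abundant of the set by FPKM, at 0.265 in EWAT. It had 0.987 and 1.27 CPM in SWAT, 0.747 and 0.629 in EWAT, and 2.77 and 4.22 in NWAT, with both NWAT libraries above the rest, and differed by 2.33 (SE 0.34, adjusted p = 0.00038) against EWAT and 1.63 (SE 0.32, adjusted p = 0.00422) against SWAT. Trim30a, which codes for a tripartite-motif protein, and Herc6, the mouse ligase for ISG15, were called in all 3 comparisons, with NWAT against EWAT values of 1.22 and 1.04. Rtp4 (1.20), Xaf1 (0.75) and Ifi35 (0.37) were called in NWAT against EWAT only. The Parp14 call of SWAT against EWAT was lost without EWAT replicate 2 (adjusted p = 0.0774), the NWAT against EWAT calls of Rtp4 without EWAT replicate 1 (0.161) or 2 (0.157), of Xaf1 without EWAT replicate 1 (0.0638) or NWAT replicate 2 (0.0775), and of Ifi35 without SWAT replicate 1 (0.0668) or 2 (0.0668), EWAT replicate 2 (0.132) or NWAT replicate 2 (0.349). The Ifi35 call was also lost with DESeq2 (adjusted p = 0.0849), with library totals (0.0699), with limma on FPKM (0.0706 to 0.12) and with only these depots in the fit (0.0672). The Ifi44 call of NWAT against SWAT was lost without NWAT replicate 2 (0.0655). The Herc6 and Trim30a calls of SWAT against EWAT were lost without SWAT replicate 1 (0.119 and 0.071) or 2 (0.0753 and 0.0778), that of Herc6 also without EWAT replicate 1 (0.0533) and that of Trim30a without EWAT replicate 2 (0.0563), and the Herc6 call of NWAT against SWAT without SWAT replicate 2 (0.0621) or NWAT replicate 2 (0.081).

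**Figure D3:**
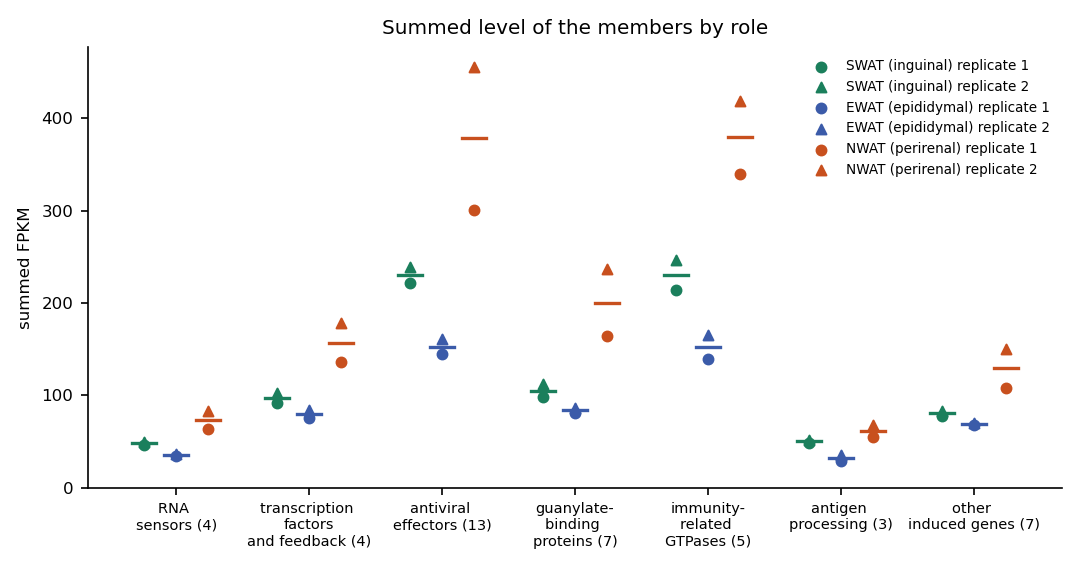
Summed FPKM of the interferon-response genes in each of the 6 libraries by role, with the number of genes summed in brackets; points are libraries and bars the mean of 2. In every role both NWAT points lie above both EWAT points, and NWAT replicate 2 lies above replicate 1.

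Set side by side, the genes differed in how SWAT was called against the low EWAT and the high NWAT cells. In 18 genes NWAT and SWAT were both higher than EWAT and not called against each other, among them all of Oas1a, Oas2 and Oas3, all 3 antigen processing genes, Isg15, Usp18, Zbp1, Stat2 and Irf9; 6.43% of all tested genes had this combination of calls. In 10 genes NWAT was higher than both other depots and SWAT was not called against EWAT (2.2% of all tested genes): Ddx58, Ifih1, Irf7, Rsad2, Oasl1, Ifi44, Gbp3, Gbp5, Gbp7 and Gbp9. A further 10 were called as a step from EWAT to SWAT to NWAT (0.716%): Ifit1, Ifit3, Cmpk2, Gbp2, Gbp4, Iigp1, Irgm2, Dhx58, Trim30a and Herc6. Many of these steps depended on the processing. With library totals in place of TMM, the SWAT against EWAT calls of Ifit3, Dhx58, Cmpk2, Gbp2, Trim30a and Herc6 were lost. Those calls and that of Iigp1 were lost with limma on log2(FPKM + 1), and that of Ifit1 with no count filter. In all, 20 genes were set apart as high in NWAT (3.42% of all tested genes) and 28 as low in EWAT (8.57%). None of the 43 was set apart as high in SWAT (6.21%) or in EWAT (9.02%) or as low in NWAT (2.35%). No test compared these patterns with each other, and a missing call between NWAT and SWAT does not show that the depots were equal.

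Some neighbouring genes had the same calls and others did not. Of the 43 genes, 25 lie in 9 groups with gaps under 500000 bases, by RefSeq coordinates on GRCm38.p6. On chromosome 3, Gbp5, Gbp7, Gbp3 and Gbp2 (chr3:142496934-142638008) were all 4 higher in NWAT than in SWAT, and only Gbp2 was called in SWAT against EWAT. On chromosome 5, Oas2, Oas3 and Oas1a (chr5:120730333-120907544) had other calls, with 0 of 3 called in NWAT against SWAT and 3 of 3 in SWAT against EWAT. The uncalled NWAT against SWAT value of Oas1a (0.59) was close to the called value of Gbp2 (0.66). The Psmb9, Tap1 and Psmb8 group (chr17:34182030-34201454) and the pair of Irgm1 and Ifi47 (chr11:48865245-49096987) had the same calls as the Oas group. In the other groups the calls differed between neighbours. In the Ifit group (chr19:34550550-34650009), Ifit1 was higher in SWAT than in EWAT by 1.21 while Ifit2 was lower (-0.33). Igtp and Irgm2 (chr11:58199556-58222783) both exceeded EWAT in SWAT, and of the pair Irgm2 was called in NWAT against SWAT. Gbp9 and Gbp4 were called in NWAT against SWAT and Gbp6 was not, Oasl1 was and Oasl2 was not, and of Rsad2 and Cmpk2 the second was called in SWAT against EWAT. No test of position was made. Neighbouring genes may share reads or regulatory sequence and are not independent observations.

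The NWAT replicates differed from each other in these genes more than the other pairs did. NWAT replicate 2 was above replicate 1 in 41 of the 43 genes (51.4% of all tested genes), with a median ratio of 1.35 and a range of 0.976 to 2.04. The widest ratio was that of Oas2 (13.7 against 28.0 CPM), and the exceptions were Gbp4 and Oasl1. In 31 genes the ratio was 1.25 or more, where 9.65% of all tested genes reached it. Replicate 2 was above replicate 1 in 34 genes in SWAT (47.7% of all tested genes), with a median ratio of 1.06, and in 28 genes in EWAT (50.7%), with a median ratio of 1.09. NWAT replicate 2 is also the library with the high haemoglobin counts, and the part of that in the result was not tested. NWAT replicate 1 alone exceeded both EWAT libraries in 43 of the 43 genes (40.2% of all tested genes) and exceeded all 4 EWAT and SWAT libraries in 30 (20.8%). Without NWAT replicate 2, 40 genes were called higher in NWAT than in EWAT and 12 higher in NWAT than in SWAT, 11 were set apart as high in NWAT, and the median log2 fold change was 0.95 against EWAT. Genes set apart as high in NWAT numbered 13 without SWAT replicate 1 and 13 without SWAT replicate 2, and NWAT against SWAT calls 14 and 14.

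**Figure D4:**
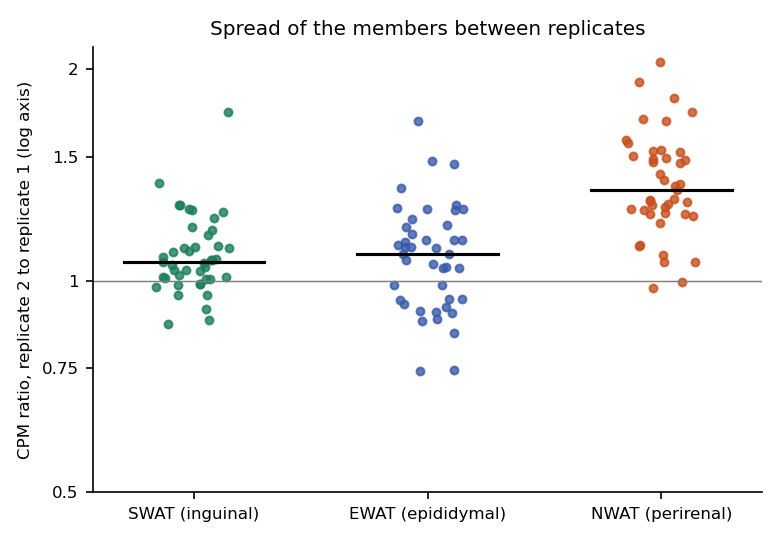
Each point is 1 of the 43 genes, and the y axis (log scale) is its CPM in replicate 2 over that in replicate 1, by depot; black bars are medians. The NWAT median is 1.35, with 41 of 43 points above 1, and those of SWAT and EWAT are 1.06 and 1.09.

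The scaling between libraries moved the comparisons with SWAT. TMM factors were 0.893 and 0.919 in SWAT, 1.05 and 1.08 in EWAT and 1.04 and 1.03 in NWAT. With library totals alone, the median of all genes shifted by -0.24 for SWAT against EWAT and by 0.19 for NWAT against SWAT. The share of higher genes among all calls then went from 49.1% to 20.9% in SWAT against EWAT and from 52% to 81.1% in NWAT against SWAT. Under that scaling 31 of the 43 genes were higher in NWAT than in SWAT (23.4% of all tested genes). In SWAT against EWAT 21 were higher (9.81%). The 7 calls of SWAT against EWAT lost were those of Ifit3 (adjusted p = 0.062), Dhx58 (0.0959), Cmpk2 (0.114), Irf9 (0.132), Trim30a (0.168), Gbp2 (0.226) and Herc6 (0.238).

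The wider pathway was read from a list of 101 other genes, of which 94 had a row and 86 were tested. In NWAT against EWAT 45 were higher and 4 lower (14% and 13.3% of all tested genes). In NWAT against SWAT 18 were higher and 1 lower (9.83% and 9.07%), and in SWAT against EWAT 38 were higher and 12 lower (18% and 18.7%). Transcripts of the ligands were close to 0. Ifnb1 had 1 count in SWAT replicate 1 and 0 in the other 5 libraries, and Ifng, which codes for interferon gamma, had 0 and 2 in SWAT, 1 and 2 in EWAT, and 0 and 3 in NWAT. A count of 0 allows up to 3 counts, or 0.145 to 0.15 CPM by library totals, for counting error only. Ifna2, Ifna4, Ifnl2 and Ifnl3 were matched to no row and were not analysed here.

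Of the 5 tested receptor genes, 1 was lower in NWAT than in EWAT (13.3% of all tested genes) and 1 was higher in SWAT than in EWAT (18%). In NWAT against SWAT 0 were called (18.9% in either direction). With so few genes, these counts are no result about the receptors. Ifnar1 had 106 and 100.2 CPM in SWAT, 99.8 and 94.1 in EWAT, and 109.8 and 115 in NWAT, and Ifnar2 had 69.6 and 69.5 CPM in SWAT, 74.1 and 74.9 in EWAT, and 64.8 and 64.8 in NWAT. Neither of these chains of the type I receptor was called, with 0.21 (SE 0.10, adjusted p = 0.134) and -0.20 (SE 0.09, adjusted p = 0.13) for NWAT against EWAT. Ifngr1, the ligand-binding chain of the interferon gamma receptor, was lower in NWAT than in EWAT (log2 fold change -0.34, SE 0.11, adjusted p = 0.0351), in the opposite direction to the induced genes. Ifngr2, the signalling chain, was higher in SWAT than in EWAT (log2 fold change 0.29, SE 0.10, adjusted p = 0.0348). That call was lost with DESeq2 (adjusted p = 0.0617) and with limma on FPKM (0.648 to 0.689). With only the compared depots in the edgeR fit, the calls of Ifngr1 (adjusted p = 0.0539) and Ifngr2 (0.0615) were lost. Il10rb, a shared chain of the interferon lambda receptor, was not called in any pair, and Ifnlr1 had 1 count in NWAT replicate 2 and 0 elsewhere. The Ifngr1 call was lost without SWAT replicate 1 (adjusted p = 0.0555) or 2 (0.0553) or NWAT replicate 1 (0.215) or 2 (0.109), and the Ifngr2 call with library totals in place of TMM (0.695) and without SWAT replicate 1 (0.16) or 2 (0.133), EWAT replicate 1 (0.0601) or NWAT replicate 1 (0.0644) or 2 (0.0637).

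Jak1, which codes for a kinase shared by both receptors, and Stat3, a relay of many cytokines, were not called in any pair, with 0.16 (SE 0.11, adjusted p = 0.303) and 0.08 (SE 0.12, adjusted p = 0.664) for NWAT against EWAT. Jak2 was higher in SWAT than in EWAT (log2 fold change 0.38, SE 0.10, adjusted p = 0.0146). Tyk2 was higher than EWAT in NWAT (log2 fold change 0.34, SE 0.10, adjusted p = 0.025) and in SWAT (log2 fold change 0.39, SE 0.10, adjusted p = 0.0106). With library totals in place of TMM, the SWAT against EWAT calls of Tyk2 (adjusted p = 0.22) and Jak2 (0.255) were lost. They were also lost with limma on FPKM (0.378 to 0.401 for Tyk2 and 0.555 to 0.61 for Jak2). The NWAT against EWAT call of Tyk2 was lost with DESeq2 (adjusted p = 0.0692) and with limma on FPKM (0.101 to 0.117). The Jak2 call and the Tyk2 call of SWAT against EWAT were lost without SWAT replicate 1 (0.0857 and 0.054) or 2 (0.0727 and 0.0703), and the Tyk2 call of NWAT against EWAT without EWAT replicate 2 (0.0806) or NWAT replicate 1 (0.15) or 2 (0.092).

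Factors and sensors outside the set followed in part. Irf1, an early target of interferon gamma signalling, had 663 and 605 CPM in SWAT, 363 and 387 in EWAT, and 708 and 1004 in NWAT, with both EWAT libraries lowest, and was higher than EWAT by 1.19 (SE 0.16, adjusted p = 0.000198) in NWAT and by 0.76 (SE 0.16, adjusted p = 0.00311) in SWAT. Irf4, a factor known in adipocytes for lipolysis and thermogenesis, was likewise higher than EWAT in NWAT (1.46) and in SWAT (1.74). Cgas, which codes for the DNA sensor that makes cGAMP, was higher in NWAT than in EWAT (log2 fold change 1.08, SE 0.26, adjusted p = 0.0125), a call that was lost without EWAT replicate 1 (adjusted p = 0.0731) or 2 (0.148) or NWAT replicate 2 (0.117). Trim25, the ligase that activates RIG-I, was higher in SWAT than in EWAT (log2 fold change 1.03, SE 0.13, adjusted p = 6.26e-05) and in NWAT than in EWAT (0.84). Mavs, Tbk1, Ikbke and Ticam1, which relay signals from the sensors, were not called in any pair.

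The widest differences from EWAT in the wider list were read next. Oas1g (3.53 for NWAT against EWAT), Gbp10 (3.37) and Gbp8 (3.30), relatives of Oas1a and Gbp6, were among them and may share reads with those genes. Cxcl9, a chemokine that draws T cells, had 122 and 124 CPM in SWAT, 7.10 and 10.9 in EWAT, and 142 and 223 in NWAT. EWAT was far below both other depots, by 4.34 (SE 0.27, adjusted p = 1.38e-05) for NWAT and 3.77 (SE 0.26, adjusted p = 1.73e-05) for SWAT. Cxcl10, a chemokine for the same receptor, had 204 and 157 CPM in SWAT, 35.0 and 52.1 in EWAT, and 225 and 454 in NWAT, again with EWAT lowest, and differed by 2.96 (SE 0.43, adjusted p = 0.0087) and 2.05 (SE 0.42, adjusted p = 0.0193). Nlrc5, the transactivator of class I antigen presentation genes, had 13.2 and 21.3 CPM in SWAT, 2.24 and 2.47 in EWAT, and 19.4 and 25.0 in NWAT, with 3.23 (SE 0.25, adjusted p = 1.19e-05) for NWAT and 2.87 (SE 0.26, adjusted p = 1.82e-05) for SWAT against EWAT. Tgtp2, a relative of the immunity-related GTPases, had 47.7 and 53.6 CPM in SWAT, 2.85 and 4.45 in EWAT, and 21.9 and 30.2 in NWAT. Tgtp2 was highest in SWAT, with 3.79 (SE 0.21, adjusted p = 4.42e-07) for SWAT against EWAT and -0.96 (SE 0.17, adjusted p = 0.00352) for NWAT against SWAT, and was the 1 gene of the wider list called lower in NWAT than in SWAT. Gvin1, a very large inducible GTPase, had 14.9 and 32.1 CPM in SWAT, 4.02 and 3.73 in EWAT, and 37.5 and 52.1 in NWAT, with 3.53 and 2.60 against EWAT. Cd274, which codes for the checkpoint ligand PD-L1, was higher than EWAT in NWAT (1.61) and in SWAT (1.25). The Cxcl10 and Gvin1 calls of NWAT against EWAT were lost without EWAT replicate 1 (adjusted p = 0.11 and 0.0961) or 2 (0.136 and 0.154), as were those of SWAT against EWAT (0.178 and 0.143, and 0.16 and 0.189), and the Cxcl10 call of SWAT against EWAT also without SWAT replicate 1 (0.0763) or 2 (0.0506).

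Slfn8 and Slfn9 of the Schlafen family were higher than EWAT in NWAT (1.65 and 1.29) and in SWAT (1.48 and 1.07). Dtx3l, a ubiquitin ligase that works with PARP9, showed the same 2 calls (1.06 and 0.81). Slfn2 was higher in NWAT than in EWAT (1.47) and than in SWAT (1.36), and both calls were lost without EWAT replicate 1 (adjusted p = 0.243 and 0.189) or 2 (0.227 and 0.189), and the call against SWAT also without SWAT replicate 1 (0.176) or 2 (0.19). Of the 12 tested antigen presentation genes, 9 were higher in NWAT and 7 in SWAT than in EWAT (14% and 18% of all tested genes). Between NWAT and SWAT 0 were called (18.9% of all tested genes in either direction). H2-K1, a class I heavy chain, had 714 and 841 CPM in SWAT, 346 and 376 in EWAT, and 698 and 951 in NWAT. Its EWAT libraries were lowest, with 1.19 (SE 0.16, adjusted p = 0.000184) for NWAT and 1.11 (SE 0.16, adjusted p = 0.000225) for SWAT against EWAT.

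**Figure D5:**
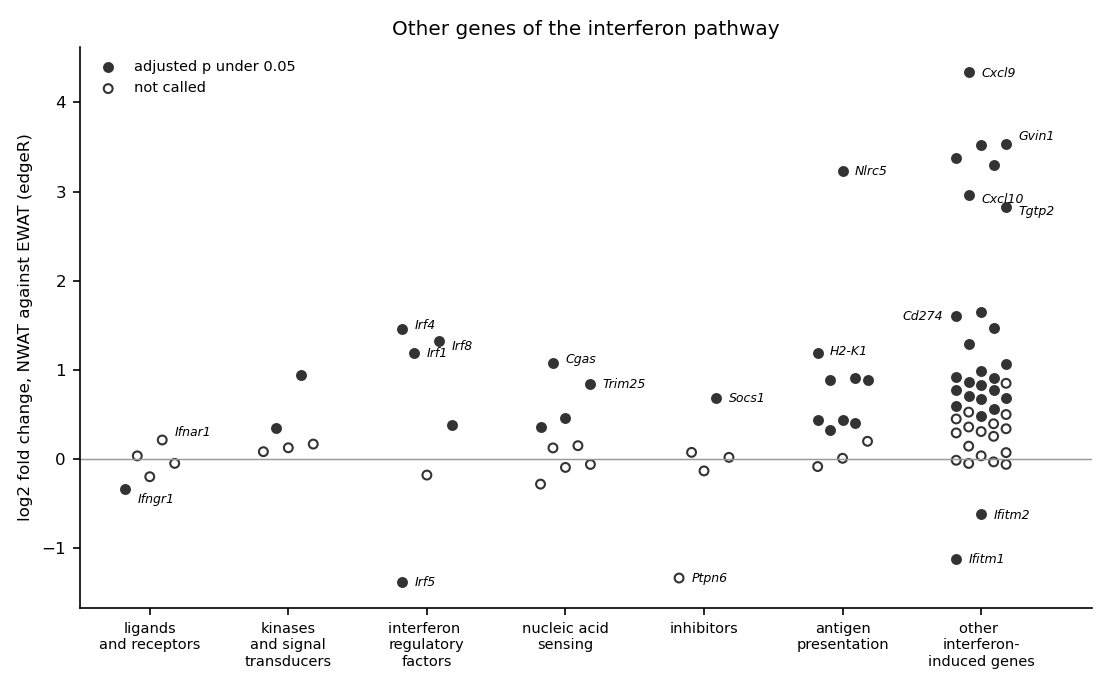
Each point is 1 of the 86 tested genes of the wider pathway, by role on the x axis, with the edgeR log2 fold change of NWAT against EWAT on the y axis; filled points passed an adjusted p of 0.05. Cxcl9 is highest at 4.34, Ifnar1 is at 0.21 without a call, and Ifngr1, Irf5, Ifitm1 and Ifitm2 are the 4 called genes below 0.

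Markers of other cells that make or answer interferon were read beside these results. For 15 macrophage and monocyte markers, summed FPKM was 17.7 and 27.0 in SWAT, 56.8 and 60.0 in EWAT, and 32.1 and 28.0 in NWAT. EWAT was highest, and by this measure both NWAT libraries lay above both SWAT libraries. By TMM-scaled CPM the sums were 27.1 and 38.2 in SWAT, 63.5 and 64.2 in EWAT, and 37.2 and 33.0 in NWAT. By that measure SWAT and NWAT overlapped and EWAT was again highest. None of the 15 was higher in NWAT than in EWAT, and 10 were lower (14% and 13.3% of all tested genes). In NWAT against SWAT 0 were lower and 1 was higher (9.07% and 9.83%). The latter was Fcer1g (log2 fold change 2.58, adjusted p = 0.000688), with 4 and 10 counts in SWAT. In SWAT against EWAT 0 were higher and 10 lower (18% and 18.7%). The 7 markers of plasmacytoid dendritic cells summed to 30.1 to 42.7 FPKM per library. Of these, Tcf4, a factor that stromal cells also express, had 3532 to 5134 counts and Ccr9 had 2 to 23, with a lower level in NWAT than in EWAT (-2.29, adjusted p = 0.0277), whereas the other 5 had 0 to 7 counts per library, among them the defining gene Siglech with 0 to 4. The 9 T, NK and B cell markers with a row summed to 1.65 to 2.76 FPKM per library. For 8 endothelial markers the sum was 84.3 and 80.1 FPKM in NWAT against 50.4 to 57.5 in the other depots; Tek held 79.6 and 75.1 of it in NWAT, while Pecam1 had 1.27 and 1.27. The 4 erythroid markers summed to 286 FPKM in NWAT replicate 2 against 7.82 to 23.7 elsewhere. Of 10 dissociation stress genes, such as Fos and Jun, 7 were higher in SWAT than in EWAT (18% of all tested genes). In NWAT against SWAT 6 were lower (9.07%). For 7 pericyte and smooth muscle markers the sum was 45.2 and 49.3 FPKM in EWAT against 8.38 to 11.3 in the other libraries. For 8 mesothelial markers it was 2.61 and 2.44 FPKM in SWAT, 55.8 and 60.5 in EWAT, and 43.4 and 52.0 in NWAT. Wt1 of that list had 0 counts in both SWAT libraries and 2230 to 3581 in the others. By TMM-scaled CPM the list summed to 119 to 170 in the EWAT and NWAT libraries, and Wt1 alone held most of that. The 6 adipocyte markers summed to 1.41 to 7.56 FPKM per library. The 10 stem cell markers went in different directions. In NWAT against EWAT 5 were higher and 2 lower (14% and 13.3% of all tested genes). In NWAT against SWAT 2 were higher and 2 lower (9.83% and 9.07%), and in SWAT against EWAT 5 were higher and 3 lower (18% and 18.7%). Pi16 and Dpp4, which mark interstitial progenitors, were called in all 3 comparisons in the order NWAT, SWAT, EWAT. Pi16 differed by 2.51 for NWAT against EWAT, 0.80 for NWAT against SWAT and 1.71 for SWAT against EWAT, and Dpp4 by 1.57, 0.49 and 1.08. Dcn (-0.72 for NWAT and -0.85 for SWAT against EWAT) and Cd9 (-0.54 and -0.48) were highest in EWAT, Itgb1 was lower in SWAT than in EWAT (-0.33), and Thy1 (-0.84) and Icam1 (-0.78) were lower in NWAT than in SWAT. The part of these markers in the result was not tested.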

How the data were processed

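The deposited files hold estimated counts per gene symbol, which are not normalized per the file headers, and the deposited FPKM values. Per the submitters' processing notes, the build was GRCm38.p6 and the tools included Cell Ranger and Seurat. Aligner, counter, annotation and strandedness were not given in the sources used here, so reads of a gene and its antisense or overlapping partner cannot be told apart. Each of these files also has 2 value columns that match no label and were not used. FPKM to count ratios lay within 5% of the gene's mean ratio for 96.1% of values over 9470 genes with at least 100 counts.

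Estimated counts were rounded and fitted in edgeR 4.0.16 (R 4.3.3) with TMM scaling, filterByExpr (count minimum 10, total minimum 15), 1 coefficient per depot over 6 libraries, 3 residual degrees of freedom and a robust quasi-likelihood test, adjusted over 13694 genes at 0.05. The standard error is the absolute log2 fold change over the square root of F. On simulated counts for NWAT against EWAT over 13488 genes, the fit called 28 of 67 true changes of 1.5-fold, 62 of 67 of 2-fold and 66 of 66 of 4-fold, beside 12 false calls. Every simulated gene had the same spread, a coefficient of variation of 0.098, and changes were placed only above a minimum mean count. These figures do not cover genes that vary more between replicates, as several members did. Full values are given for the 20 members with the widest range of depot means among those past the joint test whose mean log2 CPM is 2 or more. Wider pathway genes are named if called with an absolute log2 fold change of at least 1 at that level, with receptors, JAK and STAT genes; other genes named were chosen after their values were seen. Members, lists and motifs were chosen with earlier results of these data known. One gene of the wider list is not reported here. Of 43 members, 10 had no promoter window. Of 37 windows, 31 ended in 20 bases found in a transcript of the gene. Alternatives were DESeq2, RLE factors, library totals, other filters, limma on log2(FPKM + 1 or 0.1), a stricter call rule, pairwise fits, a replicate block and leaving out each library.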

Additional observations from a re-analysis of the deposited data

How the results depend on the processing

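Of the calls put through the alternatives, none changed direction. Over 133 gene comparisons and 16 alternatives, 207 of 2120 values kept their sign and lost their call, and 0 reversed. These covered the members, the wider pathway genes named by the fold change rule, and receptor and JAK genes with a call. Markers and other genes named with calls, such as Socs3, Socs1 and Ifitm2, were not put through the alternatives. With 1 library left out, and the lone library of that depot assumed to vary like the others, 34 to 43 members differed among depots, 32 to 42 were higher in NWAT than in EWAT, 12 to 27 higher and 0 to 1 lower in NWAT than in SWAT, and 20 to 31 higher and 0 to 1 lower in SWAT than in EWAT. Set apart were 11 to 26 as high in NWAT, 20 to 31 as low in EWAT, and 0 to 1 each as high or low in SWAT. Summed FPKM ratios with each library left out in turn, a choice made after seeing the data, ranged over 1.93 to 2.63 for NWAT to EWAT, 1.39 to 1.89 for NWAT to SWAT and 1.32 to 1.48 for SWAT to EWAT, and the last was 1.61 by CPM. A call rule that also asked for an absolute log2 fold change over 1 left 32 higher in NWAT than in EWAT, 7 in NWAT than in SWAT and 12 in SWAT than in EWAT, with 7 set apart as high in NWAT, 12 as low in EWAT and 0 lower in SWAT. DESeq2 called 0 lower in SWAT (22 higher in NWAT than in SWAT). With limma on log2(FPKM + 1) without a filter, 16 were higher in SWAT than in EWAT and 15 set apart as low in EWAT. The cause of these differences was not tested, beyond the stricter rule asking more and the left-out libraries leaving fewer samples. Beside single genes, calls lost under the alternatives other than leaving out a library are not all listed.

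With the replicate block 42 were called among depots, 42 higher in NWAT than in EWAT, 25 in NWAT than in SWAT and 30 in SWAT than in EWAT. Deviations of same-numbered libraries correlated across genes at 0.11, 0.038 and 0.001. A low value can also arise in paired samples that differ for other reasons, so whether the numbers pair the samples cannot be told. With 2 libraries per depot, the fit found 28 of 67 changes of 1.5-fold in data simulated with the same spread for all genes. A missing call is no sign of equality.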

Other observations

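Some genes of the wider interferon list did not follow the EWAT-low pattern. Of its 86 tested genes, 12 were lower in SWAT than in EWAT, where 18.7% of all tested genes were, so the count is no result about the list. Among the 12 was Ifi203, which codes for a DNA-binding protein of the HIN-200 family. Ifi203 had 236 and 299 CPM in SWAT, 384 and 368 in EWAT, and 603 and 814 in NWAT, and was higher in NWAT than in SWAT (log2 fold change 1.40, SE 0.16, adjusted p = 0.000102) and lower in SWAT than in EWAT (log2 fold change -0.49, SE 0.16, adjusted p = 0.0322). Its relatives Ifi204 (-0.62) and Ifi211 (-0.44) were also lower in SWAT than in EWAT, while Ifi205 of the same family was not called in any pair. The Ifi203 call of SWAT against EWAT was lost without SWAT replicate 1 (adjusted p = 0.227) or EWAT replicate 1 (0.114) or 2 (0.109).

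Of the 5 inhibitors of the list, 3 were lower in SWAT than in EWAT and higher in NWAT than in SWAT, where 5.88% of all tested genes were. Socs3, a feedback inhibitor of JAK kinases, had 1676 and 1594 CPM in SWAT, 2526 and 2687 in EWAT, and 2762 and 2714 in NWAT, and was lower in SWAT than in EWAT (log2 fold change -0.67, SE 0.12, adjusted p = 0.000949) and higher in NWAT than in SWAT (log2 fold change 0.74, SE 0.12, adjusted p = 0.000864). The phosphatase gene Ptpn2 and the STAT inhibitor gene Pias1 were the others. Socs1 was higher in NWAT than in EWAT (log2 fold change 0.68, SE 0.18, adjusted p = 0.0196). Ifitm1 and Ifitm2, whose proteins block viral entry, were highest in EWAT. Ifitm1 had 0.494 and 0.897 CPM in SWAT, 4.25 and 5.44 in EWAT, and 2.15 and 2.28 in NWAT, and its log2 fold change against EWAT was -1.13 for NWAT and -2.79 for SWAT, both called. Irf5, a factor of myeloid cells, differed by -1.39 and -1.97 in the same comparisons. Ifitm2 had 296 and 259 CPM in SWAT, 355 and 432 in EWAT, and 242 and 268 in NWAT, lower than EWAT in NWAT (-0.63) and in SWAT (-0.51). These genes were picked out after their values were seen.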
